A study of Mus musculus with 10 samples.

Results

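The NRF2 oxidative stress response was followed in mouse liver through 31 genes, taken from a list of known NRF2 targets and regulators and matched by symbol to the NCBI Gene numbers of the count table. All 31 were in the table of 27179 genes, and all 31 were among the 15226 genes that passed the filter on low counts. Whole liver RNA had been sequenced from male C57BL/6 mice with floxed Lpcat3 alleles, fed a diet that produces nonalcoholic steatohepatitis (NASH) for 12 weeks. The 5 control libraries came from mice labelled with the floxed alleles alone (Lpcat3f/f), and the 5 LKO libraries from mice that also carried Albumin-Cre, a recombinase driven by the promoter of a hepatocyte gene. Both groups ate the diet, Cre is named for LKO alone, and no age is given in the labels, so loss of Lpcat3 and presence of Cre cannot be told apart. The comparison asks how the livers of NASH-fed mice differ when hepatocytes lack Lpcat3, an enzyme that loads polyunsaturated fatty acids into membrane phospholipids.

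NRF2, encoded by Nfe2l2, is a transcription factor that the adaptor KEAP1 marks for degradation while the cell is at rest. Oxidants and electrophiles modify cysteines of KEAP1, NRF2 then accumulates, and with a small MAF protein it binds antioxidant response elements near its target genes. Those targets make and recycle glutathione and thioredoxin, supply NADPH, reduce quinones and carbonyls, and handle heme and iron. NRF2 is controlled mostly as a protein, and its own transcript need not follow its activity.

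The element is shown first because it is the sequence that NRF2 binds. Promoters of 27 of the 31 members were in the RefSeq table (build GRCm38.p6), 34 windows in all, each running from 250 bases before to 50 bases after a start site. Gclc, Gsr, Hmox1 and Slc48a1 had no entry. Windows were searched on both strands for the core TGACNNNGC and for its full form TGACTCAGC, which is a special case of the core and holds the AP-1 site TGACTCA. The core was in 13 of 34 member windows (38.2%) and in 4071 of 32851 windows of all genes (12.4%). Those 13 windows belong to 12 of the 27 members, and the other 15 members held no core in their windows. Bases outside the windows were not searched, so an element elsewhere would not be seen. The full form was in 4 of 34 member windows (11.8%) and in 149 of all 32851 (0.454%). Since the members were listed as known targets, these shares describe the list and support nothing about the livers. The 4 windows with the full form belong to Htatip2, Me1, Pir and Prdx1, and each is printed on the strand that reads the element, with the element in capitals.
Htatip2 (GRCm38.p6, capitals at chr7:49759463-49759471, plus strand, beginning 49 bases before the start site): ctgagctgTGACTCAGCacttccct
Me1 (capitals at chr9:86695912-86695920, minus strand, 6 bases before the start site): tgccgccgTGACTCAGCgcttctcg
Pir (capitals at chrX:164269217-164269225, minus strand, 214 bases before the start site): tgggggagTGACTCAGCctctctat
Prdx1 (capitals at chr4:116685466-116685474, minus strand, 133 bases before the start site): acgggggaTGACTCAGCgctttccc

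A second form of the element with G in place of C, TGAGTCAGC, was searched after these windows had been seen. It was in 2 of 34 member windows and in 136 of all 32851 (0.414%), and its members were Srxn1 and Osgin1. Its core, TGAGNNNGC, was in 5 of 34 member windows (14.7%), a smaller share than the 17.6% of all windows. The promoter of Nfe2l2 itself held the core once, in the form TGACTCCGC.
Srxn1 (capitals at chr2:152105479-152105487, plus strand, 45 bases before the start site): attcacccTGAGTCAGCggccgggc
Osgin1 (capitals at chr8:119437048-119437056, minus strand, 99 bases before the start site): cataagcgTGAGTCAGCaggggccc
Nfe2l2 (capitals at chr2:75704895-75704903, minus strand, 240 bases before the start site): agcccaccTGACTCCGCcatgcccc

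The 250 bases before the start site of Pir, which had the smallest coefficient of variation among LKO libraries of all 31 members, and of the downstream start site of Htatip2, which had the smallest p of the list, are given in gene orientation. In Pir the element lies on the other strand and therefore reads GCTGAGTCA.
Htatip2 (GRCm38.p6 chr7:49759262-49759511, plus strand): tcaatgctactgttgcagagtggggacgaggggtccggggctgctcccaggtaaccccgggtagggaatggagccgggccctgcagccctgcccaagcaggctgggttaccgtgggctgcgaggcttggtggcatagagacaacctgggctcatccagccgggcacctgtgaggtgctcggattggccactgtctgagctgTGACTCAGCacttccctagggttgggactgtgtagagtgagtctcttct
Pir (GRCm38.p6 chrX:164269181-164269430, plus strand): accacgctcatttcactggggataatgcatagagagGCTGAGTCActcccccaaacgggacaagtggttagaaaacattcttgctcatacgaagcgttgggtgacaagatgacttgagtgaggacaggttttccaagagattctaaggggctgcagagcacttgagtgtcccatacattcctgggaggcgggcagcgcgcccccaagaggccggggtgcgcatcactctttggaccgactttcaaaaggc

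Libraries held 26914124 to 46727182 counts. Lpcat3 stood at 94.1 to 124 CPM (counts scaled to library size) in the controls and at 25.5 to 38.5 CPM in the LKO livers, with no overlap (log2 fold change -1.79, SE 0.12; edgeR adjusted p = 0.000151). Control 4 stood apart from the other controls and among the LKO libraries on the first principal component of all tested genes, so the adjusted p without it is given for each member that passed in that fit. The sample titles also hold a code that no label explains, and of its 3 forms only A54 is shared by the groups (1 control and 2 LKO libraries). Hepatocyte markers summed to 42752 to 71976 CPM in control and 37494 to 56110.3 CPM in LKO, and all 10 had a negative log2 fold change (median -0.40). Markers of recruited macrophages summed to 87.1 to 532 CPM in control, where control 4 was the highest, and to 232 to 866 CPM in LKO (10 of 10 positive, median 1.27, with 0 called by edgeR). Without control 4 that median was 2.34 with 10 of 10 called, and without LKO 3 it was 0.90 with 0 called. The other lists had medians of 0.77 (stellate cells, 9 of 10 positive), 1.57 (cholangiocytes, 7 of 7), 0.62 (Kupffer cells, 7 of 9) and 0.35 (endothelium, 8 of 8). Neutrophils stood at 1.69 (4 of 4 tested), T and NK cells at 0.79 (5 of 6), B and plasma cells at 0.41 (3 of 4), red blood cells at 0.05 (3 of 4) and mitochondrial transcripts at -0.45 (0 of 13 positive). Without control 4 the medians were -0.51 for hepatocytes, 0.99 for stellate cells, 2.13 for cholangiocytes, 0.75 for Kupffer cells, 0.33 for endothelium, 1.88 for neutrophils and 1.29 for T and NK cells. They were 0.45 for B and plasma cells, 0.00 for red blood cells and -0.53 for mitochondrial transcripts, and without LKO 3 the cholangiocyte median was 0.98. No marker in the table was at 0 in all libraries. In whole liver, fewer cells of a type and less RNA per cell cannot be told apart, and the part of these cell types in the results below was not tested.

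No NRF2-response gene passed an adjusted p under 0.05, and the lowest was that of Htatip2 (edgeR quasi-likelihood test, Benjamini-Hochberg over 15226 genes, adjusted p = 0.0521). Over all tested genes 10 passed, or 0.0657%. At an unadjusted edgeR p under 0.05, 15 of the 31 members were higher in LKO (48.4%) and 0 were lower, where 12.8% of all tested genes were higher and 9.5% lower. The members were chosen with earlier results of these data known, so shares set beside those of all genes describe the list and are no test of it. The levels of the groups did not overlap for 6 members, all higher in LKO (19.4%), against 1.72% of all tested genes, and 0 were apart as lower, against 2.23%. Of the 31, 26 had a positive log2 fold change, against 49.5% of all genes, and the median was 0.25 against -0.00. DESeq2 called 11 members, all higher, where it called 4.16% of all genes as higher, and limma voom called 0 (0.00657% of all genes as higher), with 15 at an unadjusted p under 0.05 (13.1% of all genes higher). Without control 4, edgeR called 10 members, all higher, against 10.2% of all genes higher, and 10 members were apart, against 11% of all genes.

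**Figure D1:**
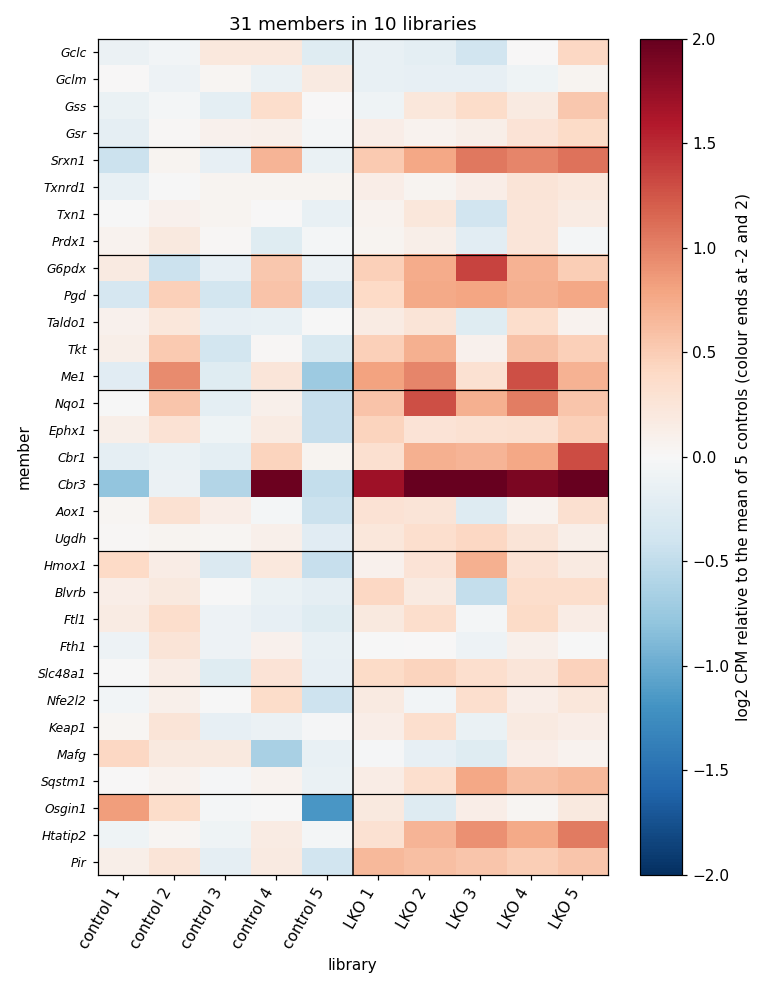
Level of all 31 members (rows, grouped by branch with black lines) in the 10 libraries (columns, control left of the vertical line), as log2 CPM relative to the mean of the 5 controls. The red LKO columns in Srxn1, G6pdx, Pgd, Nqo1, Cbr1, Cbr3, Sqstm1, Htatip2 and Pir contrast with pale rows such as Gclc, Gclm, Prdx1 and Fth1, and control 4 is red for Srxn1, G6pdx, Pgd and Cbr3.

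By branch, no member passed the adjusted threshold, and the members at an unadjusted p under 0.05 were spread unevenly. The median log2 fold change was 0.56 for quinone and carbonyl enzymes (5 of 6 at an unadjusted edgeR p under 0.05), 0.63 for NADPH supply (4 of 5) and 0.55 for the other targets (2 of 3). The branch labelled NADPH supply holds the pentose phosphate enzymes and Me1, and its members Tkt and Taldo1 make no NADPH themselves. It was 0.12 for thioredoxin (1 of 4), 0.20 for iron and heme (1 of 5), 0.14 for the regulators (1 of 4) and 0.08 for glutathione (1 of 4). As a mean log2 CPM relative to the controls, the quinone and carbonyl branch stood between -0.33 and 0.43 in control and between 0.57 and 0.97 in LKO. NADPH supply stood between -0.30 and 0.35 in control and between 0.45 and 0.72 in LKO, and thioredoxin between -0.13 and 0.12 and between 0.15 and 0.43. These branch means did not overlap between groups, whereas those of glutathione (-0.10 to 0.14 and -0.06 to 0.35), iron and heme (-0.24 to 0.22 and 0.09 to 0.28) and the regulators (-0.18 to 0.15 and 0.11 to 0.27) did. The thioredoxin mean joins unlike members, with log2 fold changes of 0.85 for Srxn1, 0.16 for Txnrd1, 0.08 for Txn1 and 0.03 for Prdx1. Its separation therefore does not describe the branch as a whole. Control 4 was the highest control in the quinone and carbonyl branch (0.43), in thioredoxin (0.12) and in glutathione (0.14), and it was at -0.08 in the regulators. No test was made of branch means or of differences between branches.

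**Figure D2:**
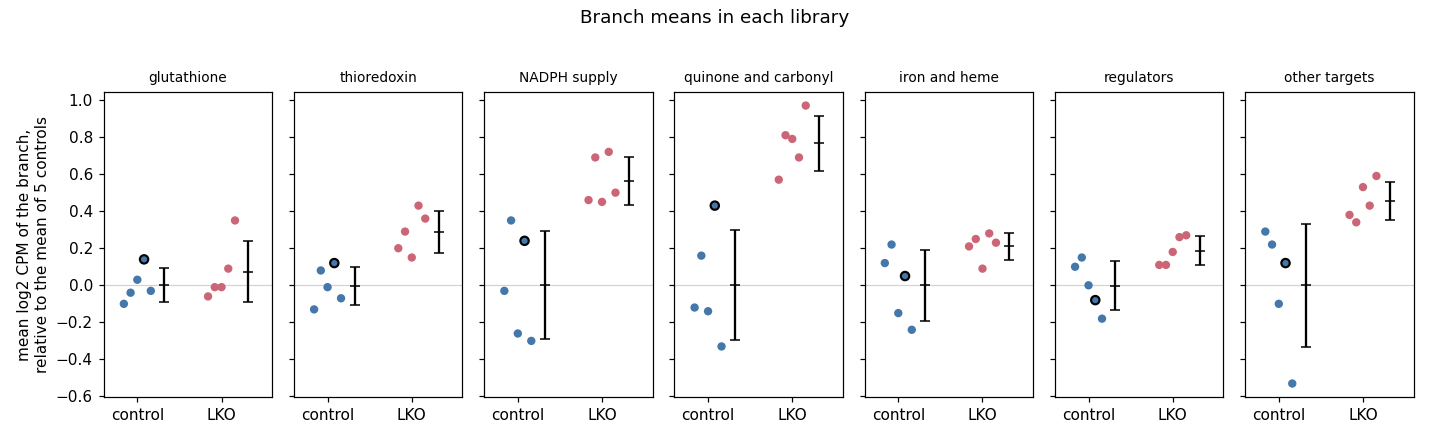
Mean log2 CPM of each branch per library, relative to the mean of the 5 controls (vertical axis), for control (blue) and LKO (red), with control 4 ringed in black and bars at the mean with SD. LKO points lie above all control points for thioredoxin, NADPH supply, quinone and carbonyl enzymes and other targets, and among them for glutathione, iron and heme, and regulators.

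The regulators come first in the pathway, and 1 of 4, Sqstm1, had an unadjusted p under 0.05. Nfe2l2 had 89.4, 99.0, 92.6, 119.8 and 69.9 CPM in controls 1 to 5 and 105, 89.4, 118, 102 and 109 CPM in LKO 1 to 5. The lowest library and the highest were both controls, and the groups overlapped (log2 fold change 0.15, SE 0.13; edgeR adjusted p = 0.515). Keap1, the inhibitor, had 31.3, 36.5, 27.3, 28.2 and 30.2 CPM in control and 33.5, 38.3, 27.8, 34.7 and 33.6 CPM in LKO. Its log2 fold change was 0.13 (SE 0.10; edgeR adjusted p = 0.469). The log2 ratio of Nfe2l2 to Keap1, in which the library scaling cancels, lay between 1.21 and 2.09 in the controls and between 1.22 and 2.08 in LKO. Mafg, a small MAF partner of NRF2, had a log2 fold change of -0.08 (SE 0.17; edgeR adjusted p = 0.795), and its lowest level, 15.0 CPM, was that of control 4.

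Sqstm1, which encodes the autophagy adaptor p62 that can bind KEAP1 and is itself an NRF2 target, had the largest log2 fold change of the 4 regulators. It stood at 252, 262, 246, 262 and 229 CPM in the controls and at 276, 315, 425, 380.5 and 391 CPM in LKO. Every LKO library lay above every control, with LKO 1 the nearest to them. The means were 250.1 ± 13.9 and 357 ± 60.7 CPM (SD, n = 5), a log2 fold change of 0.52 (SE 0.12; edgeR adjusted p = 0.0977, unadjusted p = 0.00145). Within A54 the log2 difference was 0.23, the same as in a fit that included the title code (edgeR unadjusted p = 0.245). Without LKO 1 Sqstm1 passed (edgeR adjusted p = 0.0477), as it did without control 4 (0.0269).

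In the glutathione branch no enzyme of synthesis had an unadjusted edgeR p under 0.05 with all 10 libraries. Gclc, the catalytic subunit of glutamate-cysteine ligase, the rate-limiting step, ranged from 336 to 463 CPM in control and from 307 to 532 CPM in LKO (log2 fold change -0.04, SE 0.16; edgeR adjusted p = 0.888). Gclm, its modifier subunit, ranged from 92.0 to 114 and from 89.3 to 104 CPM (-0.11, SE 0.08; edgeR adjusted p = 0.445). The log2 ratio of Gclm to Gclc was -1.99 ± 0.30 in control and -2.04 ± 0.21 in LKO (SD, n = 5). Gss, which completes glutathione, had a log2 fold change of 0.25 (SE 0.13; edgeR adjusted p = 0.274), and its highest control, 48.1 CPM, was control 4, without which the log2 fold change was 0.35 (edgeR unadjusted p = 0.0121, adjusted p = 0.0653). Gsr, which reduces oxidised glutathione with NADPH, stood at 59.2, 67.6, 70.8, 71.9 and 64.6 CPM in the controls and at 73.3, 70.0, 72.1, 80.5 and 86.7 CPM in LKO. Only LKO 2 lay below the top controls, and the log2 fold change was 0.20 (SE 0.08; edgeR adjusted p = 0.208, unadjusted p = 0.0412).

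In the thioredoxin branch Srxn1 had the largest log2 fold change and the only unadjusted p under 0.05. Srxn1 encodes sulfiredoxin, which repairs hyperoxidised peroxiredoxins. It stood at 24.0, 33.6, 28.9, 51.9 and 29.6 CPM in the controls and at 46.5, 55.7, 67.6, 63.8 and 68.5 CPM in LKO. Control 4 lay above LKO 1 and below the other LKO libraries, and the remaining controls were at or below 33.6 CPM. The means were 33.6 ± 10.8 and 60.4 ± 9.26 CPM (SD, n = 5), a 1.80-fold difference (log2 fold change 0.85, SE 0.19; edgeR adjusted p = 0.0921, unadjusted p = 0.00101). Within A54 the log2 difference was 1.08, and with the title code as a covariate the unadjusted edgeR p was 0.00849. Without control 4 the log2 fold change was 1.06 (edgeR adjusted p = 0.00427). Prdx1, a peroxiredoxin that sulfiredoxin repairs, averaged 215 ± 24.0 CPM in the controls and 220.1 ± 25.1 CPM in the LKO livers (SD, n = 5; log2 fold change 0.03, SE 0.11; edgeR adjusted p = 0.88). The log2 ratio of Srxn1 to Prdx1 was -3.23, -2.87, -2.91, -1.80 and -2.81 in control and -2.26, -2.06, -1.45, -1.98 and -1.61 in LKO, so control 4 lay inside the LKO range.

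Txnrd1, the cytosolic thioredoxin reductase, stood at 127.8, 141.5, 147.9, 147.3 and 147.6 CPM in the controls and at 155.5, 148.1, 156.1, 169.6 and 165.1 CPM in LKO. Groups did not overlap, but LKO 2 exceeded the top control by far less than the spread within a group, and the log2 fold change was 0.16 (SE 0.08; edgeR adjusted p = 0.244, unadjusted p = 0.0628). Txn1, thioredoxin itself, ranged from 42.8 to 50.2 CPM in control and from 36.4 (LKO 3) to 56.0 CPM in LKO (0.08, SE 0.11; edgeR adjusted p = 0.693). Prdx1 and Txn1 have processed pseudogenes named in the RefSeq table, so reads may have been shared with those copies.

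In the NADPH supply branch, 4 of 5 members had an unadjusted edgeR p under 0.05 and 0 passed after adjustment. For each of the 4, at least 1 control lay above the lowest LKO library. G6pdx, glucose-6-phosphate dehydrogenase, had 7.47, 4.88, 5.91, 9.57 and 6.05 CPM in control and 9.14, 11.03, 16.9, 10.6 and 9.31 CPM in LKO. Control 4 overlapped the low end of LKO, and LKO 3 stood well above the rest (log2 fold change 0.75, SE 0.21; edgeR adjusted p = 0.114, unadjusted p = 0.00437), and without control 4 the log2 fold change was 0.91 (edgeR adjusted p = 0.0163). The gene overlaps Ikbkg in the annotation, and the counting of reads in overlapping genes was not described in the labels. Pgd, 6-phosphogluconate dehydrogenase, had 17.5, 30.6, 17.1, 32.5 and 17.4 CPM in control and 28.9, 37.3, 37.8, 36.2 and 37.6 CPM in LKO. Controls 2 and 4 lay above LKO 1, and the other 3 controls lay close together near 17.5 CPM (log2 fold change 0.63, SE 0.20; edgeR adjusted p = 0.134, unadjusted p = 0.00888), and without control 4 the log2 fold change was 0.79 (edgeR adjusted p = 0.019).

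In the non-oxidative arm, Tkt, transketolase, had 126, 168, 90.3, 118 and 93.6 CPM in control and 161, 191, 123, 174 and 162 CPM in LKO. Control 2 was high and LKO 3 low, so the groups overlapped widely (log2 fold change 0.44, SE 0.17; edgeR adjusted p = 0.178, unadjusted p = 0.0269). Taldo1, transaldolase, ranged from 45.1 to 59.1 and from 42.3 to 64.0 CPM (0.13, SE 0.12; edgeR adjusted p = 0.543). Me1, cytosolic malic enzyme, which also serves fatty acid synthesis, had 118, 264, 116, 162 and 83.0 CPM in control and 241, 269, 169, 336 and 222 CPM in LKO. Control 2 lay among the LKO libraries, and the difference had a wide error (log2 fold change 0.74, SE 0.29; edgeR adjusted p = 0.176, unadjusted p = 0.0258). Control 2 was the highest control for Tkt, Taldo1 and Me1, and control 4 for Pgd and G6pdx.

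**Figure D3:**
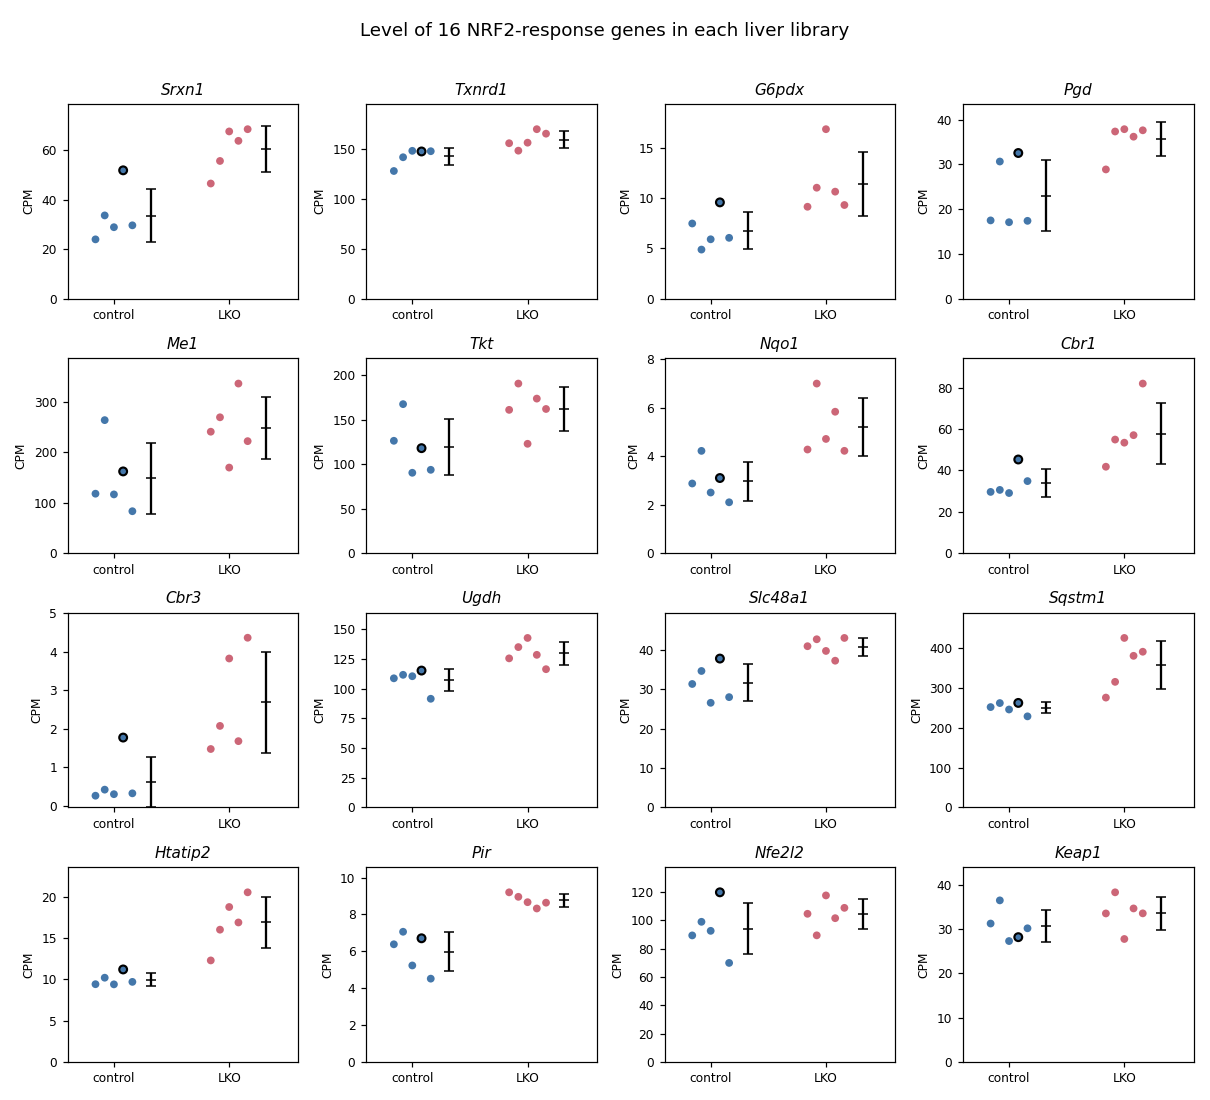
CPM (vertical axis, each from 0 or just below) of 16 members in each control (blue) and LKO (red) library, with control 4 ringed in black and bars at the mean with SD beside the points. For Sqstm1, Htatip2 and Pir every LKO point lies above every control, for Srxn1, G6pdx, Cbr1 and Cbr3 control 4 is the control that reaches the LKO points, and for Nfe2l2 and Keap1 the groups overlap.

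The quinone and carbonyl branch held the largest fold difference of the 31 members. Cbr3, a carbonyl reductase of low level in these livers, stood at 0.264, 0.421, 0.304, 1.77 and 0.326 CPM in the controls and at 1.48, 2.08, 3.82, 1.68 and 4.36 CPM in LKO. Control 4 lay inside the LKO range, and the other controls were several times lower than any LKO library. The log2 fold change was 2.11 (SE 0.56; edgeR adjusted p = 0.106, unadjusted p = 0.00289), and without control 4 it was 3.01 (edgeR adjusted p = 0.00427). Its lowest control is within a few multiples of the floor of 3 counts, which was 0.113 CPM in control 1, so the size of its difference is uncertain. Cbr1, the main carbonyl reductase and its neighbour in the genome, had 29.6, 30.5, 29.0, 45.2 and 34.8 CPM in control and 41.7, 54.9, 53.4, 57.0 and 81.9 CPM in LKO. Again control 4 was the only control above the lowest LKO library (log2 fold change 0.77, SE 0.18; edgeR adjusted p = 0.094, unadjusted p = 0.00111), and without control 4 the log2 fold change was 0.90 (edgeR adjusted p = 0.0106).

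Nqo1, the quinone reductase most often used as a readout of NRF2, had 2.87, 4.21, 2.50, 3.09 and 2.09 CPM in control and 4.27, 6.99, 4.71, 5.83 and 4.22 CPM in LKO. The groups did not overlap, though control 2 (4.215 CPM) and LKO 5 (4.217 CPM) nearly touched. The means were 2.95 ± 0.801 and 5.20 ± 1.19 CPM (SD, n = 5), a log2 fold change of 0.82 (SE 0.21; edgeR adjusted p = 0.103, unadjusted p = 0.00247), and without control 4 the log2 fold change was 0.84 (edgeR adjusted p = 0.0371). Ugdh, which makes UDP-glucuronate for conjugation, stood at 109, 112, 110.4, 115 and 91.4 CPM in the controls and at 125, 135, 143, 128 and 116 CPM in LKO. No library overlapped, and LKO 5 was the nearest to control (log2 fold change 0.27, SE 0.09; edgeR adjusted p = 0.137, unadjusted p = 0.0101).

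Ephx1, microsomal epoxide hydrolase, had 423, 480.0, 367, 437 and 283 CPM in control and 532, 472, 485, 488 and 545 CPM in LKO. Only LKO 2 lay below the top control (log2 fold change 0.34, SE 0.14; edgeR adjusted p = 0.188, unadjusted p = 0.0312). Aox1, aldehyde oxidase, ranged from 93.0 to 155 CPM in control and from 105 to 157 CPM in LKO (0.13, SE 0.15; edgeR adjusted p = 0.619). Among the 6 enzymes of the branch, Aox1 was the exception.

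**Figure D4:**
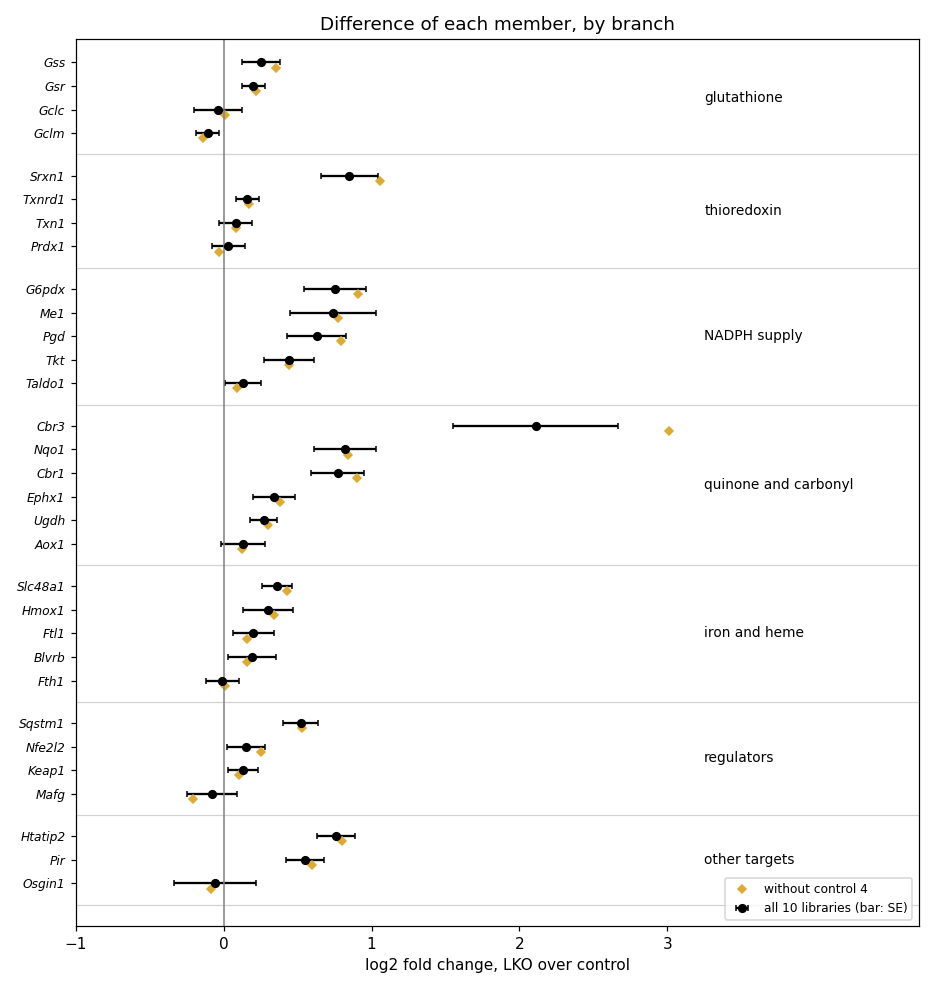
Log2 fold change of LKO over control (horizontal axis) for the 31 members, by branch and in falling order within it, from all 10 libraries (black, with SE) and without control 4 (yellow). Cbr3 moves from 2.11 to 3.01 and Srxn1 from 0.85 to 1.06 without control 4, while Gclc, Gclm, Prdx1, Fth1, Mafg and Osgin1 stay close to 0 or below it.

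In the iron and heme branch 1 of 5 members, a heme transporter, had an unadjusted p under 0.05. Slc48a1, which encodes the heme transporter HRG1, stood at 31.3, 34.6, 26.6, 37.8 and 28.0 CPM in the controls and at 40.9, 42.7, 39.7, 37.2 and 43.0 CPM in LKO. Only control 4 exceeded an LKO library, which was LKO 4 (log2 fold change 0.36, SE 0.10; edgeR adjusted p = 0.111, unadjusted p = 0.00396), and without control 4 the log2 fold change was 0.43 (edgeR adjusted p = 0.0153). Slc48a1 overlaps Hdac7 in the annotation. Hmox1, the inducible heme oxygenase and one of the strongest NRF2 targets in many cells, had 19.4, 16.5, 12.1, 17.1 and 10.8 CPM in control and 15.7, 18.0, 24.4, 18.1 and 16.9 CPM in LKO. LKO 3 was high and the rest overlapped (log2 fold change 0.30, SE 0.17; edgeR adjusted p = 0.321), and within A54 the log2 difference was -0.21. Blvrb, which encodes biliverdin reductase B, had a log2 fold change of 0.19 (SE 0.16; edgeR adjusted p = 0.477), with LKO 3 the lowest of all libraries at 90.8 CPM.

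The ferritin genes, whose protein stores iron, were the most abundant members per length of exon. Ftl1, the light chain, averaged 749 ± 131 CPM among controls and 861 ± 100.3 CPM among LKO livers (SD, n = 5; log2 fold change 0.20, SE 0.14; edgeR adjusted p = 0.419). Fth1, the heavy chain, had 684 ± 81.7 and 679 ± 33.7 CPM (-0.01, SE 0.11; edgeR adjusted p = 0.957). The log2 ratio of Fth1 to Ftl1 was between -0.38 and 0.14 in control and between -0.47 and -0.19 in LKO. Both genes have pseudogenes in the RefSeq table, so their counts are uncertain. In CPM per kilobase of exon (union of exons in the GENCODE M21 basic annotation), the control level was 774 ± 136 for Ftl1, 439 ± 52.4 for Fth1 and 229 ± 43.5 for Ephx1, and at the low end 1.90 ± 0.516 for Nqo1 and 0.528 ± 0.554 for Cbr3.

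Of the remaining targets, Htatip2 and Pir were among the clearest members and Osgin1 was not. Htatip2 encodes an NADPH-binding protein of the short-chain dehydrogenase fold. It stood at 9.40, 10.2, 9.38, 11.2 and 9.68 CPM in the controls and at 12.3, 16.003, 18.7, 16.9 and 20.5 CPM in LKO. All LKO libraries exceeded all controls, control 4 was the highest control and LKO 1 the lowest LKO library. The means were 9.97 ± 0.755 and 16.9 ± 3.11 CPM (SD, n = 5), a 1.69-fold difference (log2 fold change 0.76, SE 0.13; edgeR adjusted p = 0.0521, unadjusted p = 8.88e-05). With no filter on low counts it passed (edgeR adjusted p = 0.0451), as it did without LKO 1 (0.0195) and without control 4 (0.00849). A fit that included the title code gave 0.59 (edgeR unadjusted p = 0.0187).

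Pir encodes pirin, a nuclear protein that binds iron. It had 6.38, 7.06, 5.23, 6.71 and 4.51 CPM in control and 9.20, 8.96, 8.67, 8.32 and 8.64 CPM in LKO. No LKO library came near the controls, and the LKO values lay within a coefficient of variation of 3.82%, against 17.9% in control (log2 fold change 0.55, SE 0.13; edgeR adjusted p = 0.0935, unadjusted p = 0.00106), and without control 4 the log2 fold change was 0.60 (edgeR adjusted p = 0.0174). Osgin1, an oxidative stress-induced growth inhibitor, had 84.7, 61.5, 46.4, 47.4 and 21.2 CPM in control and 54.7, 39.9, 52.0, 49.1 and 54.5 CPM in LKO. Its control libraries spanned the whole LKO range on both sides (log2 fold change -0.06, SE 0.28; edgeR adjusted p = 0.911). Of the 4 members with the full element TGACTCAGC in the printed windows, Htatip2, Pir and Me1 were among the 15 with an unadjusted p under 0.05 and Prdx1 was not, and of the 2 with TGAGTCAGC, Srxn1 was and Osgin1 was not. By the core, 7 of 12 members with it in a window and 6 of 15 without it there were among the 15, a description with no test.

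The count of members depended on the title code and on single libraries. Scaled to total counts, all 31 members were positive with a median of 0.48, where the median of all genes moved to 0.235, so relative to all genes it was 0.24, and 24 had an unadjusted p under 0.05 (24.7% of all genes higher). Under that scaling 3762 of all genes were higher and 293 lower at an unadjusted edgeR p under 0.05, against 1956 and 1446 in the fit reported. Within A54, where 2 LKO libraries are set against 1 control, the log2 difference was above 0 for 26 of 31 members (48.2% of all tested genes), and these libraries are also part of the fit reported. With the code as a covariate 3 members kept an unadjusted edgeR p under 0.05 (Htatip2, Pgd and Srxn1, all higher), against 3.09% of all genes higher. The median of the 31 members in that fit was 0.24 with 26 positive, near the 0.25 and 26 without the code, and the genotype difference then rests on the 3 A54 libraries alone. Without the A54 libraries 11 members had an unadjusted edgeR p under 0.05 (11.4% of all genes higher), and the groups were apart for 9 members (7.49% of all genes). In that fit every control carried the code A55 and every LKO library the code A67, so code and genotype cannot be told apart. Leaving out 1 library gave from 11 members (without control 5, 9.63% of all genes) to 17 (without LKO 3, 8.84%). Members apart were 4 without control 1 (2.19%) or control 5 (2.32%). Without LKO 1, 2 members were called (0.227% of all genes higher), and with no filter 1 was (0.0616%). Without control 4 and LKO 3, an alternative chosen after seeing the data, 10 were called (9.87% of all genes higher) and 11 were apart (12%).

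Other genes of the pathway were taken from separate lists of 12 regulators and 30 targets, also chosen with earlier results of these data known. Of the regulators, all 12 were tested and 0 were called (edgeR, 0.0657% of all genes). At an unadjusted p under 0.05, 1 was higher (8.33%, below the 12.8% of all genes) and 2 were lower, against 9.5% of all genes, and the median log2 fold change was -0.06. Mafk, another small MAF, stood at 15.8 to 24.9 CPM in control and 27.1 to 30.8 CPM in LKO with no overlap (log2 fold change 0.42, SE 0.11; edgeR adjusted p = 0.107). Maff, the remaining small MAF of the family, had a log2 fold change of 0.49 (edgeR adjusted p = 0.225). Bach2, of a family of repressors that compete for the same elements, had a log2 fold change of -0.67 (SE 0.24; edgeR adjusted p = 0.157). Btrc, a ubiquitin ligase adaptor that can mark NRF2, had -0.22 (SE 0.09; edgeR adjusted p = 0.198).

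Of the 30 other targets, 28 were tested, 0 were called by edgeR (0.0657% of all genes), and 10 were higher (35.7%, against 12.8% of all genes) and 1 lower (against 9.5%) at an unadjusted p under 0.05. The median log2 fold change of the 28 was 0.16, with 17 positive (60.7%, against 49.5% of all genes) and 11 negative. Without control 4, 8 were called, against 10.2% of all genes higher. Abcc4, an efflux pump of the ABC family, stood at 4.11 to 5.71 CPM in the controls and at 8.39 to 19.1 CPM in LKO (log2 fold change 1.21, SE 0.22; edgeR adjusted p = 0.0766). LKO 3 was the highest, and Abcc4 passed without it (0.92, edgeR adjusted p = 0.0308), without LKO 1 (0.0464), without control 4 (0.0114) and with no filter (0.048). Gstm3, a glutathione S-transferase with near-identical relatives, had 25.6, 87.6, 38.1, 158 and 21.6 CPM in control and 188 to 291 CPM in LKO (1.84, SE 0.49; edgeR adjusted p = 0.106), so control 4 was again the nearest. Abcc1, another efflux pump, had a log2 fold change of 0.88 (SE 0.24; edgeR adjusted p = 0.11). Txnip, which encodes a thioredoxin-binding protein better known as a gene induced by glucose, stood at 63.9 to 123 CPM in control and 148 to 170.1 CPM in LKO (0.70, SE 0.15; edgeR adjusted p = 0.0862). Without control 4, Mafk (edgeR adjusted p = 0.041), Gstm3 (0.00683), Abcc1 (0.0156) and Txnip (0.0225) passed.

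A further pair was chosen after their values were seen. Slc7a11, the cystine transporter subunit that feeds glutathione synthesis, had 0.642, 0.738, 1.08, 2.13 and 1.05 CPM in control and 1.48, 2.27, 5.94, 2.65 and 3.31 CPM in LKO (log2 fold change 1.47, SE 0.41; edgeR adjusted p = 0.112, and 0.0157 without control 4). Gstp1, the lone target lower at an unadjusted p under 0.05, had 1018 CPM in control 1, 324 to 445 CPM in the other controls and 219 to 367 CPM in LKO (-0.89, SE 0.30; edgeR adjusted p = 0.142). Gstp1 has near-identical copies, so its counts are uncertain.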

How the data were processed

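The authors deposited raw counts, whole numbers per gene and library that were not normalized, for 10 libraries. The series' design text gives 5 mice per group, which matches 5 libraries per group. Per the labels' protocols, ribosomal RNA was removed and stranded libraries were read from a single end on 1 lane. The build GRCm39 and the tools bcl2fastq 2.20 and DESeq2 come from the submitters' processing notes. Aligner, counter, strand setting and annotation: not given in the sources used here. All 10 columns were matched to samples by title, and 0 were left out. RefSeq (GRCm38.p6) gave symbols for 25275 of 27179 gene numbers, and unmatched genes held 0.693% of counts.

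Counts were filtered with filterByExpr and scaled with TMM in edgeR 4.0.16 (R 4.3.3). Genotype was tested with the two-sided quasi-likelihood F test (legacy option) and Benjamini-Hochberg adjustment over 15226 genes, threshold 0.05. SE was derived from the fold change and F. CPM are TMM-scaled, and log2 CPM used a prior count of 2. Alternatives used DESeq2 1.42.0, limma 3.58.1 and other scalings, filters, covariates and samples. Members with an unadjusted p under 0.05 or no overlap, Nfe2l2 and Keap1 were given in every library, and up to 4 genes of each further list were named by smallest p. Members and lists were chosen with earlier results of these data known. On simulated counts for this comparison (15098 genes), edgeR found 74 of the 100 with a 2-fold change and 94 of the 100 with a 4-fold change. It made 9 false calls. DESeq2 found 85 and 95 of them and made 45 false calls. The simulated libraries of a group shared the same mean per gene, with no library set apart as control 4 was, so these counts need not hold here. Replicates all differed by more than sampling noise. Floors cover counting error only, whereas SE and SD also hold the spread among libraries. Figures used matplotlib 3.10.9.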

Additional observations from a re-analysis of the deposited data

Results flagged for a closer look

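In 5 of the 62 groups of 5 libraries formed by the 31 members, a library lay far from the other 4 by Dixon's criterion, and chance flags about 1 group in 20. G6pdx stood at 16.9 CPM in LKO 3, against 9.14 to 11.03 CPM in the other LKO libraries. Hmox1 stood at 24.4 CPM in LKO 3, against 15.7 to 18.1 CPM. Pgd stood at 28.9 CPM in LKO 1, below the 36.2 to 37.8 CPM of the others. Cbr3 stood at 1.77 CPM in control 4, against 0.264 to 0.421 CPM in the other controls. Ugdh stood at 91.4 CPM in control 5, below the 109 to 115 CPM of the others.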

How the results depend on the processing

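The number of members called moved from 0 to 1 with no filter (Htatip2), to 11 with DESeq2 and to 10 without control 4 and LKO 3 together, an alternative added after seeing the data, and leaving out 1 library gave 0 to 10 (2 without LKO 1, 10 without control 4). Calls over all genes, 10 in the fit reported, were 31 with no filter, 20 with at least 1 CPM in 5 libraries, 1186 with DESeq2, 5 with limma voom, 0 with the title code, 2363 without control 4 and LKO 3, and 2 to 2296 with 1 library left out. Members higher at an unadjusted p under 0.05 were 24 with total counts and 3 with the title code, and 11 to 17 with 1 library left out. Members apart as higher, 6 in the fit reported, were 4 with RLE scaling (1.67% of all genes) and 7 with total counts (3.59%). They were 5 with at least 1 CPM in 5 libraries (1.90%). Without control 4 and LKO 3 they were 11, and with 1 library left out 4 to 10. With total counts, branch medians were 0.30 (glutathione), 0.35 (thioredoxin), 0.44 (iron and heme) and 0.37 (regulators).

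The log2 fold changes of 9 named genes, called under no setting given here, changed sign. With total counts log2 fold changes were 0.18 (Gclc), 0.14 (Gclm), 0.22 (Fth1), 0.19 (Mafg), 0.20 (Osgin1) and 0.01 (Btrc). Fth1 stood at 0.02 with upper quartile scaling, Osgin1 at 0.06 with limma voom. With the title code values were -0.20 (Hmox1), 0.09 (Fth1) and -0.30 (Maff), without A54 0.01 (Gclc), 0.06 (Mafg) and 0.23 (Osgin1), and without control 4 and LKO 3 0.08 (Gclc) and 0.03 (Fth1). With 1 library left out the ranges were -0.18 to 0.03 (Gclc), -0.03 to 0.08 (Prdx1), -0.05 to 0.05 (Fth1), -0.21 to 0.03 (Mafg) and -0.26 to 0.18 (Osgin1). The cause was not tested.

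No regular pairing by replicate number was seen: correlations of same-numbered deviations ran from -0.399 to 0.419. The highest was that of control 1 and LKO 1, which share the code A54. With the replicate block 2 genes and 0 members were called, and Osgin1 stood at 0.05. In that fit 13 members were higher at an unadjusted edgeR p under 0.05, against 11.4% of all genes higher. Low counts limit Cbr3 above all.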
